A study of Mus musculus with 4 samples.

Results

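Interferon-responsive astrocytes are described here in single-cell RNA-seq of brain cells from APOE4 and APOE3 targeted-replacement mice, in which the human APOE allele stands in place of the mouse gene. Male mice were injected intraperitoneally with lipopolysaccharide (LPS, 5 mg per kg, 24 h) or with NaCl, and cells from 3 mice were pooled into 1 library for each of the 4 groups: APOE4 LPS, APOE3 LPS, APOE4 NaCl and APOE3 NaCl. The labels give no time for the NaCl injection and no wild-type mouse group, the suspension was enriched for glia before capture, and nothing in the files assigns a cell to a mouse. A cell was an astrocyte where its barcode had at least 1000 UMIs (unique molecular identifiers, each standing for 1 captured transcript), at least 500 genes and at most 20% mitochondrial UMIs, carried at least 3 of the 6 genes Aqp4, Gja1, Slc1a2, Slc1a3, Aldoc and Ntsr2, and had at most 3 UMIs in all of the microglial genes C1qa and Ctss, the endothelial gene Cldn5, the oligodendrocyte gene Mog and the ependymal gene Foxj1. An astrocyte was interferon-gated where Gbp2, Iigp1, Igtp, Ifi47 and Cxcl10 (the gate genes) summed to at least 3 UMIs. The interferon-gated cells were thus chosen by their own gate UMIs. Of 60717 barcodes that passed the filters 15970 were astrocytes, and 564 of these were interferon-gated. The LPS libraries held 494 (APOE4) and 57 (APOE3) of them, and the NaCl libraries held 2 (APOE4) and 11 (APOE3).

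Interferons are cytokines that signal through paired receptors and JAK kinases to STAT transcription factors. Type I interferons act through Ifnar1 and Ifnar2 on a STAT and IRF9 complex that binds interferon-stimulated response elements, while interferon gamma acts through Ifngr1 and Ifngr2 on STAT dimers that bind gamma-activated sites. Their targets in mouse cells include the guanylate-binding proteins and immunity-related GTPases, which attack membranes around intracellular microbes, the antiviral proteins, and the machinery that displays peptides on MHC class I. Astrocytes are the glia that clear glutamate, buffer potassium and cover blood vessels, and astrocytes carrying such targets are a known reactive state in the inflamed brain.

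The label was checked against marker genes of 12 other cell types and a list of 12 leptomeningeal genes, from the membranes that cover the brain. The astrocyte list includes the 6 genes by which the rule admitted cells. The microglial, endothelial, oligodendrocyte and ependymal lists include the genes that the rule capped, so the values of these lists were partly fixed in advance. All 12 markers of the astrocyte list had UMIs in the interferon-gated cells of both LPS libraries, but the rule also admitted cells in which another list was higher. In APOE4 LPS, astrocyte markers were the highest list in 457 of 494 interferon-gated cells, which held 83.6% of their UMIs, and leptomeningeal genes were the highest in 8 cells, which held 8.95%. In APOE3 LPS, cells led by astrocyte markers held 41.6% of the UMIs of the 57 interferon-gated cells, and 15 cells led by leptomeningeal genes held 55.5%. Among other astrocytes the leptomeningeal share of UMIs was 0.892% in APOE4 LPS and 1.27% in APOE3 LPS. The summed level of the leptomeningeal genes was 1644 CPM (a gene's UMIs over the total UMIs of the group, scaled to CPM, with the gate genes left out of the total) in interferon-gated cells against 260 CPM in other astrocytes of APOE4 LPS, and 8950 against 228 CPM in APOE3 LPS. Cells led by choroid plexus markers were on the other side of the contrast in APOE4 LPS, with 12 of 494 interferon-gated cells (2.08% of UMIs) against 398 of 3082 other astrocytes (8.37%), and choroid plexus markers summed to 2799 against 10973 CPM. Astrocyte markers were the highest list in 75.0% of the other astrocytes of APOE4 LPS and in 90.5% of those of APOE3 LPS. The part of choroid plexus UMIs in the values of all cells was not tested. The APOE3 LPS group goes against its label by weight of UMIs, so counts for most lists and values of many genes are also given for astrocyte-led cells, in which the 12 astrocyte markers together exceeded every other list. These were 455 interferon-gated and 2270 other cells in APOE4 LPS, and 40 and 3275 cells in APOE3 LPS. The definition of astrocyte-led cells was chosen after the values were seen.

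**Figure D1:**
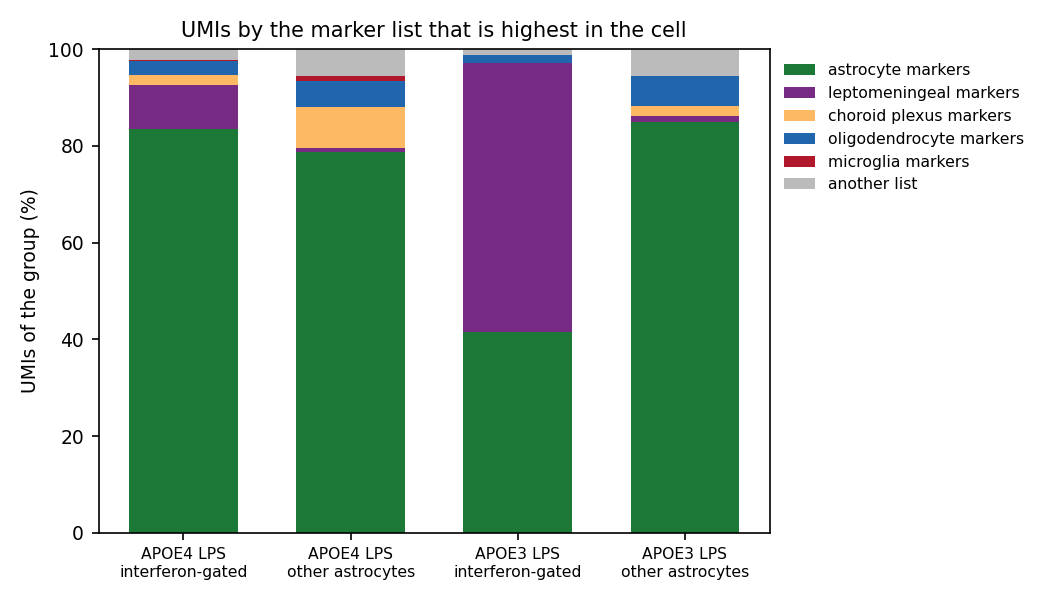
Share of UMIs (%) in cells of each group by the marker list that is highest in the cell, for interferon-gated and other astrocytes of the LPS libraries. Cells led by astrocyte markers hold 83.6% and 41.6% of the UMIs of interferon-gated cells in APOE4 LPS and APOE3 LPS, with the leptomeningeal part 8.95% and 55.5%.

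Depth differed between the groups. Interferon-gated cells had a median of 4540 UMIs against 2307.5 in other astrocytes of APOE4 LPS, and 7368 against 3881 in APOE3 LPS. Their UMIs summed to 2742567 and 9896780 in APOE4 LPS, and to 675626 and 16135483 in APOE3 LPS. The 10 largest interferon-gated cells held 11.4% of the UMIs in APOE4 LPS and 47.7% in APOE3 LPS. Between 61 and 140 cell barcodes were shared by any 2 libraries, and none was interferon-gated in both. With 1 library per group there are no replicates, so no test was made, intervals are exact 95% intervals for counting error only, and a difference between libraries cannot be told apart from one between the pools of mice.

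Promoters of 4 gate genes and of interferon targets described below are shown so that the 2 classical interferon elements can be read where they are present. The bases are from RefSeq's mouse promoter table (GRCm38.p6, 250 bases before to 50 after the start of a gene), each on the strand of its gene, 5′ to 3′, cut to the stretch from just outside the outermost match to just past the start, or to the last bases before the start where there is no match. Capitals mark matches to an interferon-stimulated response element (ISRE), searched as GAAA, any 2 bases, GAAA on either strand, and to a gamma-activated site (GAS), searched as TTC, any 3 bases, GAA, which reads alike on both strands. Cxcl10, at chr5:92348880-92349107 on the minus strand, has an ISRE match that begins 213 bases before the start. Gbp2, at chr3:142620584-142620672 on the plus strand, has one at 59 bases. Igtp, at chr11:58199491-58199565 on the plus strand, has an ISRE match at 34 and a GAS match at 45 bases before the start. Ifi47, at chr11:49076467-49076596 on the plus strand, holds neither pattern in its window. Gbp5, at chr3:142496684-142496943 on the plus strand, has an ISRE match at 165 and GAS matches at 245 and 52 bases. Irgm1, at chr11:48871411-48871480 on the minus strand, has overlapping ISRE matches at 30 and 24 bases, and Isg15, at chr4:156200809-156200916 on the minus strand, has 3 that overlap, at 78, 72 and 66 bases. Rsad2 (chr12:26456443-26456592, minus strand), H2-T23 (chr17:36032692-36032845, minus strand) and B2m (chr2:122147528-122147696, plus strand) have 1 ISRE match each, at 120, 124 and 139 bases. Gfap (chr11:102897174-102897260, minus strand) has a GAS match at 2 bases before its start, and Lcn2 (chr2:32387730-32387859, minus strand) holds neither pattern in its window, which says only that these letters are not there. The promoters of the interferon targets Tap1 and Oasl2 also hold neither and are not printed.
Cxcl10: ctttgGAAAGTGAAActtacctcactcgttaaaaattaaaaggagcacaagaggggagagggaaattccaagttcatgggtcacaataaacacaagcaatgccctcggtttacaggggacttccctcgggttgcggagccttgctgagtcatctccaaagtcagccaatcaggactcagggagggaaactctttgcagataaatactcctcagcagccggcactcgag
Gbp2: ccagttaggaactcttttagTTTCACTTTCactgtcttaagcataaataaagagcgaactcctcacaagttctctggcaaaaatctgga
Igtp: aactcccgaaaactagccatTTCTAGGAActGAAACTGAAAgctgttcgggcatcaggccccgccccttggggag
Ifi47: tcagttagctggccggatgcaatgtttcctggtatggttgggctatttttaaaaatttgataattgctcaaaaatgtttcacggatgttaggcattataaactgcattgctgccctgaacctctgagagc
Gbp5: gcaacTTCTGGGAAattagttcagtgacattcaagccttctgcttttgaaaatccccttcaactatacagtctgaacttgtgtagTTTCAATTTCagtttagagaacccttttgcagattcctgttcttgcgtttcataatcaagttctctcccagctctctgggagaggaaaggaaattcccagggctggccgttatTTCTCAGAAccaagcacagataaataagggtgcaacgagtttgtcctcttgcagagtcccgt
Irgm1: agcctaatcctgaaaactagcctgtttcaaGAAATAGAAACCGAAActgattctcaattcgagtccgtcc
Isg15: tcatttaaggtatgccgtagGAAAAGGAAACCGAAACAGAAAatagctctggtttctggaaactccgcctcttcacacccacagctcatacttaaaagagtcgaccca
Rsad2: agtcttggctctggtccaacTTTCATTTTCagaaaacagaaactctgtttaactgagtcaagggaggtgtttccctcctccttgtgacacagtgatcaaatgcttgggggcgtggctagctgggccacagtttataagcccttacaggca
H2-T23: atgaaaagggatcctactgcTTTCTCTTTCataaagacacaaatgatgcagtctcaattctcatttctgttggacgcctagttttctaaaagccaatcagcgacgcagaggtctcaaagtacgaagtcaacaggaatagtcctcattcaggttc
B2m: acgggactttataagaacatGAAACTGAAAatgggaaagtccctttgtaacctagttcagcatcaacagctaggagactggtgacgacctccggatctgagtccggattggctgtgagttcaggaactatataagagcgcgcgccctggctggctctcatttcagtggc
Gfap: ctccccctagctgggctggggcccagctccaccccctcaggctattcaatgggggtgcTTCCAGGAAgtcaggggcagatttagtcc
Lcn2: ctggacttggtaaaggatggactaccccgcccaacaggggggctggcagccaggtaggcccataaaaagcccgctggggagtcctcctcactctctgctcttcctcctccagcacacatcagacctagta

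Of 27025 promoters in the table, 3.99% held the ISRE pattern and 9.55% the GAS pattern. The ISRE pattern was in the promoters of 3 of 4 gate genes with an entry, 3 of 3 guanylate-binding proteins, 7 of 8 immunity-related GTPases, 14 of 24 antiviral genes and 5 of 17 MHC class I genes. It was in 1 of 16 promoters of NF-kB feedback and acute phase genes and 2 of 15 of homeostatic astrocyte genes. Of 13 pan-reactive astrocyte genes 1 held it, the gate gene Cxcl10. The A1 and A2 lists, described below, held it in 4 of 11 (with the gate gene Gbp2) and 2 of 8, and chemokines in 2 of 8. The GAS pattern was in 1 of 4 gate genes, 2 of 3 guanylate-binding proteins and 5 of 8 immunity-related GTPases. Antiviral and MHC class I genes held it in 7 of 24 and 2 of 17. NF-kB and acute phase, pan-reactive and homeostatic genes held it in 5 of 16, 2 of 13 and 3 of 15. A match describes the letters and was not tested as a binding site. The gate gene Iigp1 and the genes Gbp6 and Serping1 had no entry.

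The share of astrocytes that were interferon-gated was 13.8% in APOE4 LPS, with an exact 95% binomial interval of 12.7% to 14.99%, against 1.55% (1.18% to 2.004%) in APOE3 LPS. The NaCl libraries had 0.0498% (0.00603% to 0.180%) in APOE4 mice against 0.234% (0.117% to 0.418%) in APOE3 mice. APOE4 LPS stood above the other libraries, and both LPS libraries stood above both NaCl libraries. The intervals count cells of 1 library each, chosen by their gate UMIs, and do not measure variation between mice. Among astrocyte-led cells the shares were 16.7% in APOE4 LPS and 1.21% in APOE3 LPS. When every cell was thinned to 1000 UMIs and gated again, APOE4 LPS had 4.71% (173 of 3671 cells) against 0.342% (12 of 3510) for APOE3 LPS. At that depth APOE4 NaCl had 0% (0 of 4008, which allows up to 0.0920%) against 0.127% (6 of 4737) for APOE3 NaCl. The order of the LPS libraries was thus the same at equal depth. The intervals of APOE3 LPS (0.177% to 0.596%) and APOE3 NaCl (0.0465% to 0.275%) overlapped there. Barcodes of other cell types also passed the gate. With at least 4 markers of a type as the criterion, 26.6% of endothelial barcodes passed in APOE4 LPS and 17.9% in APOE3 LPS, and 26.4% and 44.5% of leptomeningeal barcodes, which is above the share of astrocytes in the same library. Microglial barcodes passed in 5.83% (473 of 8109) and 10.5% (571 of 5424) of cases, and oligodendrocyte barcodes in 3.24% (63 of 1946) and 0.412% (12 of 2913). Median depths in APOE4 LPS and APOE3 LPS were 3139 and 6486 UMIs for endothelial, 5460.5 and 13070.5 for leptomeningeal, 2216 and 7646 for microglial, and 4096 and 6190 for oligodendrocyte barcodes. In a further count, cells were chosen at full depth and only their gate UMIs were thinned. In APOE4 LPS 2.97% of endothelial, 2.27% of leptomeningeal, 1.18% of microglial and 0.668% of oligodendrocyte barcodes passed, against 5.20% of astrocytes (186 of 3576). The exact 95% interval of leptomeningeal barcodes, 0.742% to 5.22%, just included the value of astrocytes, and that of endothelial barcodes, 1.77% to 4.65%, ended below it. By the same count in APOE3 LPS, microglial barcodes stood highest at 1.99%, above astrocytes at 0.299% (11 of 3676). How much of the gate UMIs in any type was free RNA was not tested.

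**Figure D2:**
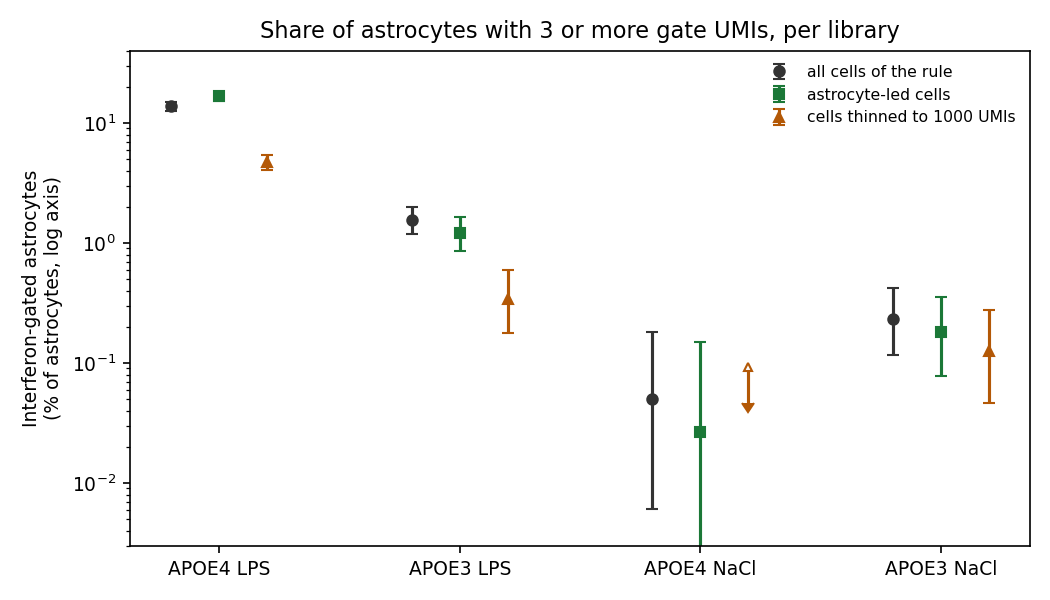
Interferon-gated cells as a percentage of astrocytes (log axis) per library, for all cells of the rule, astrocyte-led cells and cells thinned to 1000 UMIs, with exact 95% intervals for counting error; the open triangle with an arrow is the upper limit of a count of 0. APOE4 LPS lies at 13.8%, 16.7% and 4.71%, above APOE3 LPS at 1.55%, 1.21% and 0.342%.

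The gate genes chose the cells, so their values are a description only. In APOE4 LPS, Cxcl10, a chemokine that draws T cells, had UMIs in 59.3% of interferon-gated cells, Gbp2 in 81.4%, the immunity-related GTPases Iigp1 and Igtp in 65.2% and 65.8%, and Ifi47, of the same GTPase family, in 28.7%. The median interferon-gated cell had 7 gate UMIs in APOE4 LPS and 5 in APOE3 LPS, and the highest had 104 and 75. All 5 gate genes were present in 62 cells of APOE4 LPS and in 4 of APOE3 LPS. The threshold did not cut at a gap. In APOE4 LPS the 100 cells just inside it, at 3 gate UMIs, had 507 CPM of Gfap and 2289 CPM of antiviral genes in sum, against 407 and 2134 CPM in the 158 cells just outside, at 2 gate UMIs. In APOE3 LPS the 16 cells at 3 gate UMIs had 352 CPM of Gfap and 7039 CPM of antiviral genes, against 1084 and 4759 CPM in the 40 cells at 2, and astrocyte markers led 8 of the 16 and 26 of the 40 cells.

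Interferon-gated astrocytes were next set against the other astrocytes of the same library over all genes, to ask what else distinguishes them. A gene was measured where the smaller group would be expected to hold at least 10 UMIs at the pooled rate, and called where its CPM + 1 differed at least 1.5-fold. In APOE4 LPS the guanylate-binding proteins and immunity-related GTPases outside the gate, the antiviral genes and the MHC class I genes were higher in interferon-gated cells almost without exception. Most reactive astrocyte genes and the metallothioneins Mt1 and Mt2 were higher too, while most genes of diencephalic and brainstem astrocytes and Hes5 were lower. Of 12992 measured genes, 9.73% were called higher and 14.1% lower in interferon-gated cells. Among astrocyte-led cells 10.2% of 12024 genes were called higher and 13.1% lower. The rule used Gbp2, Iigp1, Igtp, Ifi47 and Cxcl10 in the same cells, so genes that travel with them are described and not tested, and the lists below were chosen with earlier results of these data known.

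All 7 measured guanylate-binding proteins beside Gbp2 were called higher in APOE4 LPS, with a median log2 ratio of 3.24, or 3.79 among astrocyte-led cells, where the median over all measured genes was 0.01 and 0.03. Gbp6 had 175.8 CPM in interferon-gated and 12.3 CPM in other astrocytes, a 14.3-fold difference (11.7 to 17.5), and 17.2-fold among astrocyte-led cells. Gbp5, which also promotes inflammasome assembly, had 138 and 9.50 CPM, a 14.5-fold difference (11.5 to 18.4). Both were seen in many cells and not in a few. Gbp6 was in 44.9% of interferon-gated cells and 3.47% of other astrocytes, or 13.0% and 1.36% after thinning, against 2.58% of microglial and 1.70% of oligodendrocyte barcodes before it. Gbp5 was in 36.0% and 2.66%, and in 15.1% of microglial barcodes. Gbp7 and Gbp3 were 6.17-fold and 6.07-fold higher, and Gbp4, Gbp8 and Gbp9 were 12.1-fold, 20.01-fold and 12.3-fold higher from lower counts. These last genes, like Gbp3 and Gbp7, are close copies between which reads can be split, so their single values are uncertain. The 4 measured immunity-related GTPases outside the gate were all called higher, with a median log2 ratio of 2.95. Irgm1, a regulator of the other GTPases of the family, had 329 CPM in interferon-gated and 52.3 CPM in other astrocytes (6.28-fold, 5.63 to 7.01), and Irgm2 had 68.3 and 12.1 CPM. Irgm1 was in 66.8% and 13.1% of cells, or 25.9% and 5.87% after thinning.

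Of 25 measured antiviral genes, 24 were called higher in APOE4 LPS and none lower, with a median log2 ratio of 1.86, and 24 of 24 with a median of 2.23 among astrocyte-led cells. Isg15, a ubiquitin-like protein conjugated to targets after interferon, had 163.7 CPM in interferon-gated and 17.3 CPM in other astrocytes (9.47-fold, 7.93 to 11.4). Rsad2, whose product viperin makes a chain-terminating nucleotide, had 104 and 11.01 CPM (9.46-fold). Ifit1 and Ifit3, of a family that binds viral RNA, were 7.70-fold and 5.42-fold higher, Oasl2 was 6.57-fold and Ifi44 10.1-fold higher. The abundant membrane protein Ifitm3, which blocks viral entry, was 3.58-fold higher at 1110 against 310.1 CPM, and the virion tether Bst2 was 3.43-fold higher. Ifi27 was the gene not called, at 236 and 169 CPM, a 1.40-fold difference that became 1.69-fold among astrocyte-led cells.

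Ligands, receptors and signal transducers gave a mixed picture. No UMI of Ifng was found in the astrocytes of APOE4 LPS and none of Ifnb1 in astrocytes of the LPS libraries, which at this depth allows up to 0.744% of interferon-gated cells of APOE4 LPS to show a UMI and sets no limit on cells that express the gene, whereas microglial barcodes held 18 UMIs of Ifnb1 in 10 of 8109 cells in APOE4 LPS and 46 UMIs in 9 of 5424 cells in APOE3 LPS. Of 19 measured receptors, STATs and IRFs, 7 were called higher and none lower, with a median log2 ratio of 0.28. The receptor genes were near parity. Ifngr1 had 43.1 CPM in interferon-gated and 44.1 CPM in other astrocytes (0.979-fold, 0.792 to 1.20), Ifnar1 had 38.0 and 31.9 CPM (1.19-fold, 0.944 to 1.49) and Ifnar2 had 69.1 and 62.5 CPM (1.10-fold). Transducers that interferons induce were higher, with Stat2 at 3.64-fold and Irf9 at 1.91-fold. Irf7, which amplifies type I interferon production, was 4.83-fold higher, and Irf1, an early target of interferon gamma, was 4.07-fold higher at 69.1 against 17.0 CPM. Irf3, which is regulated by phosphorylation, had 24.5 and 30.7 CPM. The feedback inhibitor Socs1 was 2.69-fold higher, whereas Socs3, the inhibitor of gp130 signalling, had 33.6 and 31.2 CPM. Osmr, a subunit of the oncostatin M receptor, was 3.71-fold higher, and Stat3 was 2.01-fold higher. Of 4 measured cytokine ligands, Csf1, a growth factor for microglia, was 1.79-fold higher, whereas Il1b had 2.92 and 12.1 CPM and Tnf 2.19 and 8.99 CPM. Microglial markers summed to 287 CPM in interferon-gated and 813 CPM in other astrocytes, and their part in those 2 values was not tested.

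The MHC class I pathway was called higher in all 20 measured members in APOE4 LPS, with a median log2 ratio of 1.96, and in 19 of 19 with a median of 2.09 among astrocyte-led cells. H2-T23, a nonclassical class I molecule that presents signal peptides to natural killer cells, had 344 CPM in interferon-gated and 48.7 CPM in other astrocytes (7.07-fold, 6.33 to 7.90). It was in 65.4% and 11.5% of cells, or 27.7% and 6.55% after thinning. The classical genes H2-K1 and H2-D1 were 2.94-fold and 3.90-fold higher, and the shared light chain B2m was 2.50-fold higher at 622 against 248 CPM. Tap1, the peptide transporter, was 7.29-fold higher, Nlrc5, the transactivator of class I genes, was 4.68-fold higher, and the immunoproteasome subunits Psmb8 and Psmb9 were 6.03-fold and 5.50-fold higher. Constitutive proteasome and ubiquitin-like genes were called higher in 2 of 15 cases, with a median log2 ratio of 0.31. Cd274, whose product PD-L1 restrains T cells, was 7.04-fold higher at 93.9 against 13.3 CPM. MHC class II was called higher in 5 of 6 measured genes with a median log2 ratio of 1.36, but this median was -0.28 when every cell had equal weight, and 2 genes were measured among astrocyte-led cells.

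Chemokines and complement were mixed. Of 10 measured chemokines beside Cxcl10, 4 were called higher and 3 lower, or 3 and 1 of 7 among astrocyte-led cells. Ccl2, which recruits monocytes, had 24.1 CPM in interferon-gated and 9.40 CPM in other astrocytes, while Ccl5, a T-cell chemokine, had 126.4 and 196 CPM over all cells but was not called among astrocyte-led cells, at 93.7 and 124 CPM, and Ccl12 had 7.67 and 36.2 CPM. Of 9 measured complement genes, 3 were called higher and 2 lower, or 3 and 1 of 8 among astrocyte-led cells. Serping1, the inhibitor of C1 proteases, was 5.92-fold higher (4.85 to 7.24), or 5.51-fold among astrocyte-led cells, and the central component C3 was 4.59-fold higher at 70.5 against 15.4 CPM, or 3.73-fold among astrocyte-led cells. C3 was in 4.66% of interferon-gated cells, and 5 of them held 65.3% of its UMIs. C4b, the C4 gene of astrocytes, had 111 and 121 CPM.

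Reactive astrocyte genes stood higher as well. Of 12 measured pan-reactive genes 10 were called higher and none lower in APOE4 LPS, with a median log2 ratio of 1.51, and 11 with a median of 1.29 among astrocyte-led cells. Gfap, the intermediate filament protein of astrocytes, had 652 CPM in interferon-gated and 246 CPM in other astrocytes (2.65-fold, 2.49 to 2.82). Serpina3n, a secreted protease inhibitor, had 987 and 486 CPM (2.03-fold), and Cd44, the hyaluronan receptor, had 96.8 and 21.5 CPM (4.50-fold). Gfap was in 80.4% of interferon-gated cells and 29.3% of other astrocytes, or 44.9% and 17.3% after thinning. Lcn2, a secreted protein that binds bacterial siderophores, had 4010 and 798 CPM (5.02-fold, 4.88 to 5.17). It was in 46.8% and 28.5% of cells, but also in 49.4% of microglial barcodes, whose median depth was 2216 UMIs, and 5 interferon-gated cells held 31.1% of its UMIs. Hspb1, a chaperone of the small heat-shock family, was 3.39-fold higher. Timp1, a metalloproteinase inhibitor, was 5.07-fold higher over all cells and 2.12-fold among astrocyte-led cells. Vim was not called at 168.5 and 114 CPM over all cells, and was 1.85-fold higher among astrocyte-led cells.

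The A1 and A2 lists, named after astrocytes of LPS-treated and of ischaemic mice, were both mostly higher. They share genes with other lists. From the A1 list, H2-T23, H2-D1 and Psmb8 were also counted under MHC class I, Serping1 and C3 under complement and Fkbp5 under glucocorticoid-responsive genes. Ptx3 is in the A2 list and in that of NF-kB feedback and acute phase genes, which shares Lcn2 and Serpina3n with the pan-reactive list. In APOE4 LPS 8 of 11 A1 genes and 7 of 11 A2 genes were called higher, with median log2 ratios of 1.53 and 1.75, and 2 genes of each list lower. Among astrocyte-led cells 8 of 11 A1 genes and 8 of 10 A2 genes were called higher, with medians of 1.57 and 1.85. Amigo2, from the A1 list, was 2.95-fold higher, whereas Fbln5, from the same list, was 3.15-fold lower at 52.3 CPM in interferon-gated against 164.5 CPM in other astrocytes. From the A2 list, the sphingosine kinase Sphk1 was 8.14-fold and the transporter Slc10a6 5.57-fold higher. Of 20 NF-kB feedback and acute phase genes, 13 were called higher and 1 lower, or 14 and 2 among astrocyte-led cells. Ptx3, a soluble pattern recognition protein, was 8.72-fold higher and Bcl3, a nuclear cofactor of NF-kB, 3.44-fold higher. Tnfaip3, the feedback inhibitor A20, was 3.20-fold lower at 3.29 against 10.5 CPM, and the acute phase gene Saa3 had 402 and 407 CPM over all cells but was called lower among astrocyte-led cells, at 134.9 and 219.7 CPM.

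Stress and hormone-responsive genes were higher in part. The metal-binding genes Mt1 and Mt2 were 2.53-fold and 2.84-fold higher in interferon-gated than in other astrocytes of APOE4 LPS, with Mt2 at 7231 against 2547 CPM, while the brain-specific Mt3 had 2879 and 3424 CPM. The list of metallothioneins and redox genes was called higher in 6 and lower in 1 of 16 cases. Glucocorticoid-responsive genes were called higher in 7 and lower in 2 of 15 cases, among them the glucocorticoid receptor co-chaperone Fkbp5 (2.67-fold), the cell cycle inhibitor Cdkn1a (2.02-fold) and the lipid droplet protein Plin4 (2.34-fold). The stress-induced nuclear factor Nupr1 was 6.23-fold higher and the nuclear RNA Neat1 4.18-fold higher. Slc16a1, a lactate transporter, was 2.79-fold higher, and Msmo1, a sterol synthesis enzyme, was 1.97-fold higher. Cholesterol synthesis as a list was called higher in 2 of 24 cases with a median log2 ratio of 0.26, and glycolysis in 3 and lower in 1 of 20. Over all measured genes 9.73% were called higher and 14.1% lower, so these 2 counts are not read as results about the lists. Among astrocyte-led cells the counts of higher and lower genes were 6 and 2 for metallothioneins and redox genes, 7 and 1 for glucocorticoid-responsive genes, 3 and 1 for cholesterol synthesis, and 3 and 3 for glycolysis.

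Homeostatic astrocyte genes were mixed. Of 20 transporters and channels, 1 was called higher and 5 lower in APOE4 LPS, with a median log2 ratio of -0.13, and the counts were the same among astrocyte-led cells, with a median of -0.19. The glutamate transporter Slc1a2 had 7136 CPM in interferon-gated and 4820 CPM in other astrocytes (1.48-fold), Slc1a3 had 2364 and 2431 CPM, and the water channel Aqp4 had 349 and 315.5 CPM (1.11-fold). The genes called lower included the gap junction protein Gja1 at 693 and 1461 CPM (2.11-fold lower, 2.01 to 2.21), the GABA transporter Slc6a11 (2.36-fold lower), the serine transporter Slc7a10 (2.29-fold lower) and the bicarbonate transporter Slc4a4 (1.79-fold lower). Hes5, a Notch target of neural progenitors and astrocytes, was 4.06-fold lower (3.27 to 5.08) at 32.9 against 133 CPM, and was in 9.92% and 19.7% of cells. Apoe had 186 and 199 CPM, and Clu 3408 and 2729 CPM. These mice carry human APOE, and counts on the mouse genome do not measure that transcript in full.

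Genes of diencephalic and brainstem astrocytes were called lower in 9 of 11 cases and higher in 1 in APOE4 LPS, with a median log2 ratio of -0.81, and lower in 10 of 11 with a median of -0.94 among astrocyte-led cells. Itih3, a hyaluronan-binding protein chain, was 2.73-fold lower at 127.5 CPM in interferon-gated against 348 CPM in other astrocytes, the glycine transporter Slc6a9 was 2.17-fold lower, and Agt, the angiotensin precursor, was 1.72-fold lower. Genes of telencephalic astrocytes were called lower in 2 of 8 cases with a median of 0.04. Genes of white matter and subpial astrocytes, a list that shares Gfap, Vim and Cd44 with the pan-reactive list, were called higher in 5 and lower in 1 of 9. Their median was 0.66. Among astrocyte-led cells the telencephalic list had 1 of 7 genes called lower, and the white matter and subpial list had 5 higher and 2 lower of 9. The labels give no brain region, so a difference in region of origin and a difference in expression cannot be told apart.

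Among all genes of astrocyte-led cells in APOE4 LPS, the 15 leading higher ones were mostly interferon targets. They were Il19, Gbp5, Gbp6, Gbp8, Olfr56, Gbp4, Ifi44, Isg15, Gbp9, Rsad2, H2-T23, Phf11d, Cd274, Scn7a and Ptx3. The list holds a few genes that rest on few cells. Il19, a cytokine of the interleukin 10 family, had 52 UMIs in 9 interferon-gated cells, with 65.4% of them in 1 cell, and the sodium channel gene Scn7a had 92.1% of its UMIs in 5 cells. Over all cells of the rule the leading genes also held the leptomeningeal genes Col3a1, Slc47a1, Eya2 and Bnc2. These genes left the list among astrocyte-led cells, whose definition uses them, so that was largely set in advance. At the other end, Mgat4c, a glycosyltransferase, had 110 CPM in interferon-gated against 543 CPM in other astrocyte-led cells (4.96-fold lower). The glutamate receptor Grm8 had no UMI in interferon-gated cells and was at least 15.1-fold lower, taking 3 UMIs as the limit of a count of 0, and the D-amino acid oxidase Dao was at least 6.89-fold lower on the same basis. Hbb-bt, a haemoglobin gene of red blood cells, had 14.0 and 137 CPM, and the part of free blood RNA in the other values was not tested.

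**Figure D3:**
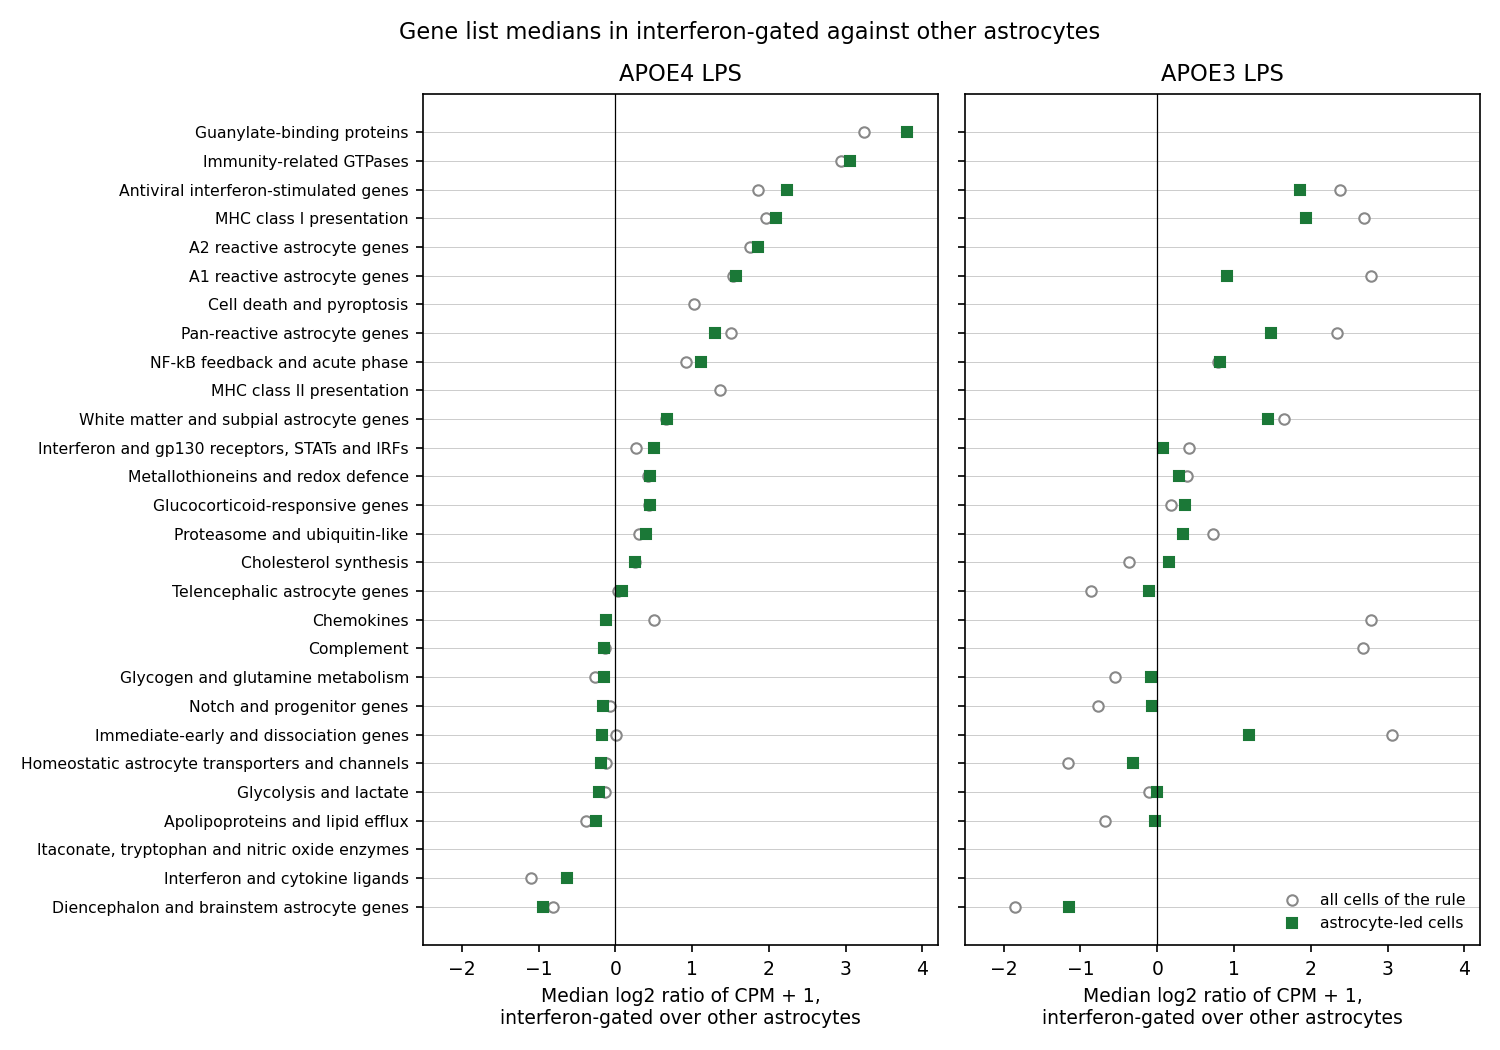
Median log2 ratio of CPM + 1, interferon-gated over other astrocytes, for each gene list with at least 3 measured members, in APOE4 LPS (left) and APOE3 LPS (right), for all cells of the rule (open circles) and astrocyte-led cells (squares). In APOE4 LPS the guanylate-binding proteins lead at 3.24 and 3.79 and the diencephalon and brainstem genes are at -0.81 and -0.94; in APOE3 LPS all cells of the rule and astrocyte-led cells lie further apart, with homeostatic genes at -1.16 and -0.31.

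The values followed the number of gate UMIs in a graded way. Astrocyte-led cells of APOE4 LPS were ordered by gate UMIs into cells with 0 (1873 cells), 1 (283), 2 (114), 3 to 4 (130), 5 to 9 (155), 10 to 19 (80) and 20 or more (90). Guanylate-binding proteins outside the gate summed to 43.5, 174, 280.4, 341, 557, 984 and 1407 CPM along these classes and were highest in the class with the most gate UMIs. MHC class I genes summed to 722, 1763, 2996, 3028, 3482, 4297 and 5148 CPM. Gfap had 218, 642, 456, 702, 859, 798 and 684 CPM, and metallothionein and redox genes summed to 21950, 41086, 43884, 54495, 57658, 56446 and 54221 CPM. These were already high below the threshold and did not climb further above 10 gate UMIs. Hes5 had 169, 128, 58.4, 51.5, 50.5, 25.5 and 20.1 CPM and was lowest in the last class. Median depth was 2848, 2396, 2513, 3602, 4044, 5310 and 5770 UMIs, so depth also differed along the classes, and microglial markers summed to 460.1 CPM in the first and 176 CPM in the last class.

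**Figure D4:**
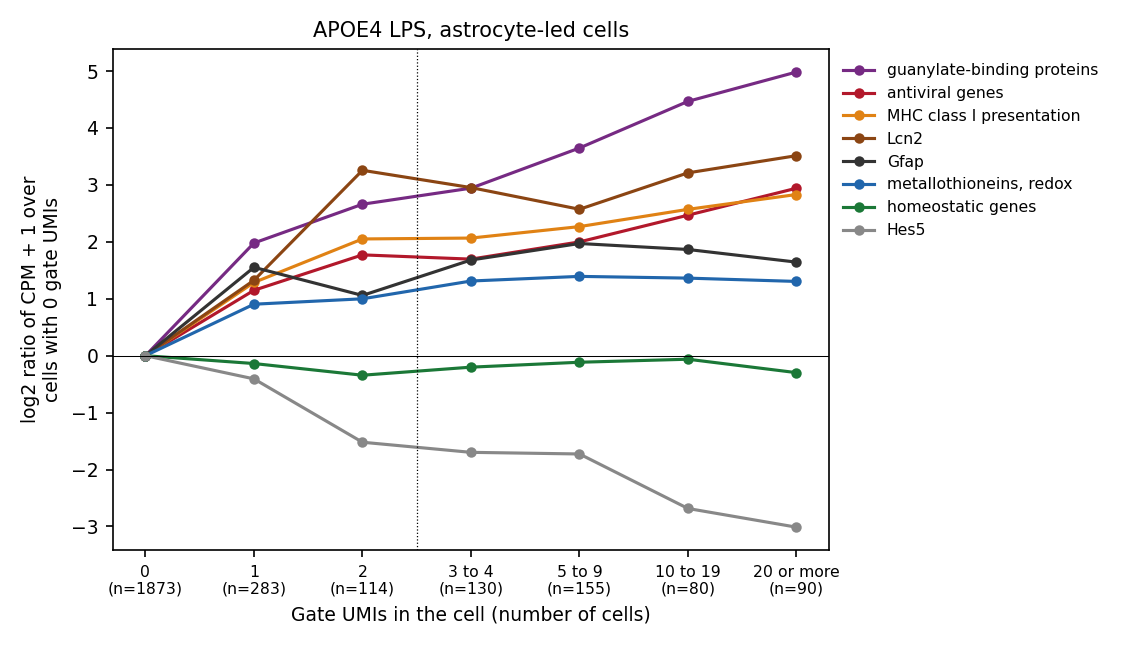
Log2 ratio of CPM + 1 over cells with 0 gate UMIs for 5 gene lists (summed) and 3 genes, by gate UMIs in astrocyte-led cells of APOE4 LPS; the dotted line marks the threshold of 3 gate UMIs. Guanylate-binding proteins run from 43.5 to 1407 CPM across the classes and Hes5 from 169 to 20.1 CPM, while homeostatic genes stay near 0 on the log2 axis.

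In APOE3 LPS the same comparison rested on 57 cells, 15 of them led by leptomeningeal genes. Over all cells 14.4% of 8726 measured genes were called higher in interferon-gated cells and 28.5% lower. The leading genes were then mainly not astrocytic. Prok2, a secreted prokineticin, was 113-fold higher, and the matrix genes Ogn, Col6a1 and Mgp were 88.0-fold, 63.1-fold and 37.3-fold higher. Of the Prok2 UMIs 57.8% were in 1 of the 57 cells and 95.9% in 5. Homeostatic astrocyte genes were called lower in 15 of 20 cases, and Slc1a2 had 4044 CPM in interferon-gated against 6707 CPM in other astrocytes. These values moved with the leptomeningeal UMIs, whose part was not tested. Among astrocyte-led cells Slc1a2 had 8792 and 7651 CPM, and homeostatic genes were called lower in 6 of 19 cases with a median log2 ratio of -0.31. Slc1a2 and several other homeostatic genes are among the markers that define astrocyte-led cells, so this shift was largely set in advance. Immediate-early genes were called higher in 9 of 9 cases over all cells, and in 3 of 3 among astrocyte-led cells, where 69.7% of the Fos UMIs came from 1 cell.

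Among the 40 astrocyte-led interferon-gated cells of APOE3 LPS, 9.40% of 5063 measured genes were called higher and 12.4% lower. Interferon targets were again higher. All 4 measured antiviral genes and all 6 measured MHC class I genes were called higher, with median log2 ratios of 1.86 and 1.94. Ifitm3 had 1055 CPM in interferon-gated and 95.1 CPM in other astrocytes (11.1-fold, 9.75 to 12.6), H2-K1 463 and 133 CPM (3.50-fold), and B2m 428 and 117 CPM (3.65-fold). Of the Ifitm3 UMIs 32.1% were in 1 of the 40 cells and 55.1% in 5. The 10 largest of the 40 cells held 49.2% of their UMIs. Leptomeningeal genes remained in these cells, with Mgp at 174.6 against 12.4 CPM and Col6a1 at 32.1 against 0.365 CPM. Their part in these values was not tested. The immunoproteasome subunit Psmb10 was 5.50-fold higher. No guanylate-binding protein or immunity-related GTPase reached the count needed to be measured in these 40 cells, but Gbp6 had 92.7 and 6.50 CPM, Gbp5 67.7 and 2.56 CPM, and Irgm1 168 and 28.6 CPM. Over all 57 cells Gbp7 and Irgm1 were measured, and were 7.80-fold and 4.39-fold higher.

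Reactive genes were higher in APOE3 LPS as well. All 4 measured pan-reactive genes were called higher among astrocyte-led cells, with a median log2 ratio of 1.49. Gfap had 670 CPM in interferon-gated and 274 CPM in other astrocytes (2.44-fold, 2.10 to 2.83) and was in 35 of the 40 cells. Over all cells of the rule Gfap was not called, at 293 and 249.8 CPM. Serpina3n had 545 and 266 CPM among astrocyte-led cells, and Mt2 had 3126 and 1267 CPM. Lcn2 was 16.3-fold higher at 1771 against 109 CPM, but 5 cells held 95.6% of its UMIs. Gja1 was 1.52-fold lower (1.36 to 1.71), Slc6a11 2.22-fold and Slc7a10 2.15-fold lower, and Fbln5 3.67-fold lower. Hes5 was not called, at 128 and 187 CPM. Diencephalic and brainstem genes were called lower in all 5 measured cases, with a median log2 ratio of -1.15. The haemoglobin gene Hbb-bs was 92.3-fold lower at 10.7 against 987 CPM, from 3 UMIs in interferon-gated cells. It was in 7.5% of those cells and 4.82% of other astrocytes, so the share of cells with a UMI was not lower. The part of free blood RNA was not tested.

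The called genes overlapped in part between the LPS libraries. Among 5063 genes measured in both for astrocyte-led cells, 121 were called higher in both, which was 42.9% of the 282 called in APOE4 LPS and 25.4% of the 476 called in APOE3 LPS. A further 217 were called lower in both, 41.8% of 519 in APOE4 LPS and 34.6% of 627 in APOE3 LPS. Over all cells of the rule 8724 genes were measured in both. Of these 314 were called higher in both, 52.0% of 604 in APOE4 LPS and 25.0% of 1256 in APOE3 LPS. Another 633 were called lower in both, 73.5% of 861 in APOE4 LPS and 25.5% of 2485 in APOE3 LPS. The ISRE pattern was in the promoters of 7.40% of genes called higher among astrocyte-led cells of APOE4 LPS (71 of 959 with an entry), against 3.76% of all measured genes, and in 3.93% (15 of 382) against 3.29% in APOE3 LPS.

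Interferon-gated astrocytes of APOE4 LPS were then compared directly with those of APOE3 LPS. Over all cells 21.1% of 8901 measured genes were called higher in APOE4 LPS and 13.2% lower, and the leptomeningeal UMIs of the APOE3 LPS cells enter both counts. Among astrocyte-led cells 13.1% of 5286 genes were called higher and 8.0% lower. The guanylate-binding proteins and the antiviral genes lay on opposite sides of parity. Of 5 measured guanylate-binding proteins 4 were called higher in APOE4 LPS and none lower, with a median log2 ratio of 1.10. Of 20 antiviral genes none was called higher and 7 were called lower, with a median of -0.46. Measured genes were chosen at the pooled rate, to which APOE4 LPS gave 2283086 UMIs and APOE3 LPS 280582. Genes high in APOE4 LPS thus passed more readily, and Gbp4 passed with 103 and 1 UMIs. Both groups were also chosen by Gbp2, so these counts are a description only. Gbp5 had 153.7 CPM in APOE4 LPS and 67.7 CPM in APOE3 LPS (2.27-fold, 1.43 to 3.82), Gbp6 was 2.16-fold and Irgm1 2.18-fold higher. Isg15 had 155 CPM in APOE4 LPS and 239 CPM in APOE3 LPS (1.54-fold lower, 1.17 to 2.004), Ifit3 was 1.89-fold lower and Ifitm3 1.81-fold lower. In APOE3 LPS 5 cells held 73.1% of the Isg15 UMIs and 55.1% of the Ifitm3 UMIs. In the same library 5 cells held 84.2% of the 19 Gbp5 UMIs and 57.7% of the 26 Gbp6 UMIs. Over all cells of the rule, with the same limit, guanylate-binding proteins were called higher in 7 of 7 cases and antiviral genes lower in 10 of 24. That set includes the astrocyte-led cells, so it is not a separate comparison, and the part of leptomeningeal UMIs in it was not tested. Among astrocyte-led other astrocytes of the same 2 libraries the median log2 ratios of the 2 lists were 1.04 and 0.27, so the guanylate-binding proteins were higher in APOE4 LPS outside the gate as well.

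MHC class I genes were called higher in 6 of 16 cases among astrocyte-led interferon-gated cells of APOE4 LPS and lower in none. Tap1 was 3.41-fold higher (2.01 to 6.30) and H2-D1 2.51-fold higher, while Psmb8 had 230.4 CPM in APOE4 LPS and 178 CPM in APOE3 LPS with an interval of 0.966 to 1.76. Of 9 pan-reactive genes 6 were called higher and none lower. Serpina3n had 1094 CPM in APOE4 LPS and 545 CPM in APOE3 LPS (2.01-fold, 1.70 to 2.38), and Cd44 was 4.49-fold higher from 256 and 7 UMIs. Osmr was 5.75-fold and Mt2 2.61-fold higher. Hspb1 had 589 and 57.0 CPM, a 10.3-fold difference. Most of these genes were also higher in the other astrocyte-led astrocytes of APOE4 LPS than in those of APOE3 LPS. There Hspb1 had 159.8 CPM in APOE4 LPS and 13.6 CPM in APOE3 LPS (11.8-fold), Serpina3n was 1.89-fold, Mt2 2.21-fold, H2-D1 2.18-fold and Tap1 2.13-fold higher, Cd44 was 3.72-fold and Osmr 3.60-fold higher. Gfap was not called, at 763 and 670 CPM (1.14-fold, 0.979 to 1.33). The direction of Lcn2 depended on the cells: it was 2.03-fold higher in APOE4 LPS among astrocyte-led cells, at 3593 against 1771 CPM, and 2.27-fold lower over all cells of the rule, at 4010 against 9095 CPM. Homeostatic genes likewise had a median log2 ratio of -0.16 among astrocyte-led cells, whose definition uses several of them, and 0.72 over all cells. Hes5 had 38.1 CPM in APOE4 LPS and 128 CPM in APOE3 LPS (3.37-fold lower, 2.22 to 5.02), and 158.5 and 187 CPM in the other astrocytes of the same libraries.

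Set beside the NaCl libraries, the order of levels depended on the gene. Gbp6 had 199.7 CPM in interferon-gated astrocytes of APOE4 LPS, 92.7 CPM in those of APOE3 LPS, 11.6 and 6.50 CPM in the other astrocytes of APOE4 LPS and APOE3 LPS, and 2.06 and 2.14 CPM in those of APOE4 NaCl and APOE3 NaCl, all astrocyte-led. B2m kept that order, at 602, 428, 202, 117, 78.6 and 82.6 CPM. For both genes the other astrocytes of both LPS libraries were above the NaCl libraries, and the 2 NaCl values were close to each other. Isg15 instead had 155 CPM in interferon-gated astrocytes of APOE4 LPS and 239 CPM in those of APOE3 LPS. Hes5 ran the other way, at 38.1, 128, 158, 187, 428 and 409 CPM, and Gja1 had 743, 1080, 1732, 1645, 2016 and 2074 CPM. Slc1a2 had 8335, 8792, 5784, 7651, 6014 and 5899 CPM, with both interferon-gated groups above every group of other astrocytes. Gja1 and Slc1a2 are among the markers that define the cells of every group. Lcn2 had 3593, 1771, 700.0, 109, 0 and 0.184 CPM, and so was close to absent without LPS.

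**Figure D5:**
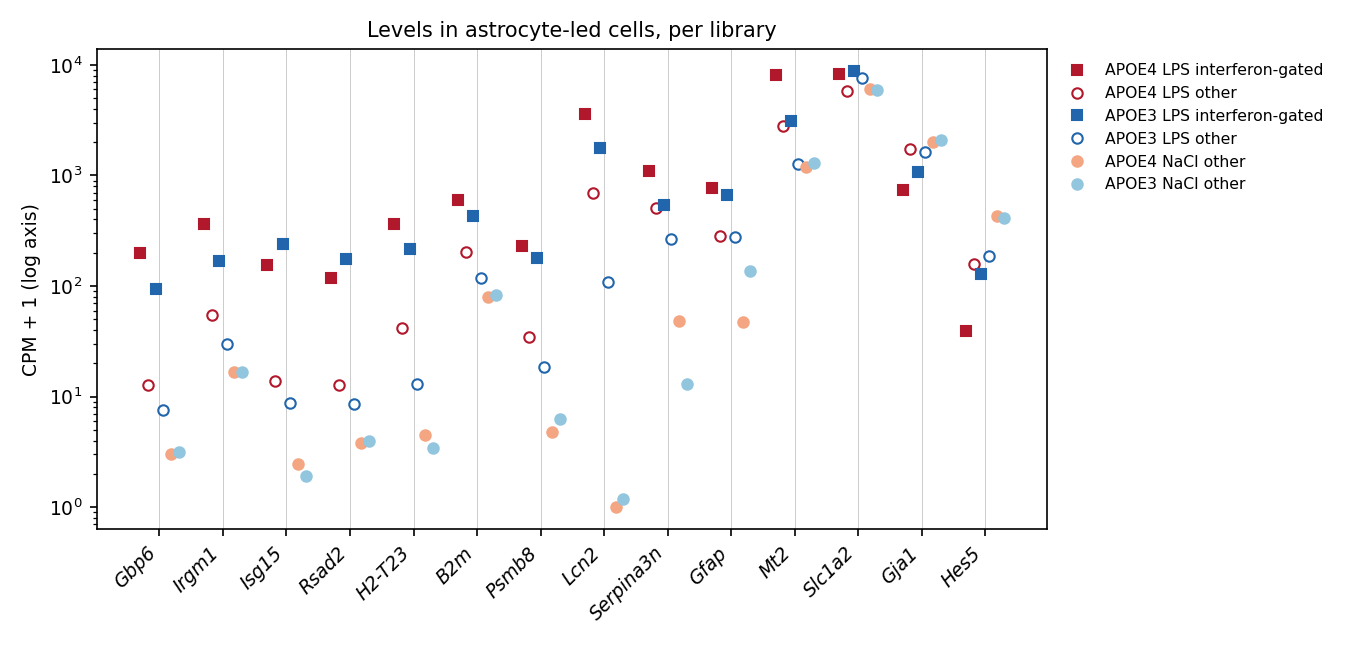
CPM + 1 (log axis) of 14 genes in astrocyte-led cells of 6 groups, with interferon-gated cells as squares and other astrocytes as circles, 1 library each and no error shown. Gbp6 lies at 199.7 and 92.7 CPM in interferon-gated cells of APOE4 LPS and APOE3 LPS and at 2.14 CPM or less in other astrocytes of the NaCl libraries, while Hes5 lies at 38.1 and 128 CPM against 428 and 409 CPM in the same NaCl groups.

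The 13 interferon-gated cells of the NaCl libraries were too few for a profile. In APOE4 NaCl they were 2 cells with 4 and 5 gate UMIs, 1 of them led by leptomeningeal genes. In APOE3 NaCl they were 11 cells with 3 to 46 gate UMIs, of which 8 were led by astrocyte markers, 2 by leptomeningeal genes and 1 by choroid plexus genes. None of the 13 held a UMI of Lcn2. The 3 cells of APOE3 NaCl with the most gate UMIs had 46, 45 and 18, and held 1, 41 and 21 UMIs of Gfap.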

How the data were processed

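Droplet single-cell RNA-seq (10x Next GEM 3′ v3.1 chemistry, NovaSeq, per the labels' protocols) gave 1 filtered matrix of UMI counts per library, deposited by the authors as raw counts of 32285 genes. The file headers name Cell Ranger 7.0.1, and the submitters' processing notes name version 7.0 and the build mm10. Other settings are not given in the sources used here. The deposited counts were summed over cells of a group and given as CPM of the group's UMIs without the 5 gate genes. Ratios are of CPM, log2 ratios of CPM + 1, with exact binomial or Poisson intervals, and 3 counts as the limit of a 0.

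The cells and gene lists (28 lists, 7 of whose symbols are not in the files) were chosen with earlier results of these data known; 1 gene is not reported here. Genes named beyond the lists were the 15 higher and 10 lower genes of each LPS library, and the 10 in each direction between genotypes, with interval bounds farthest from 1. With 1 library per group no count model was fitted. The calculation was tested on simulated counts. Thinning drew 1000 UMIs per cell with a fixed seed and left out no cell, since every cell had that many. Doublets were not removed. Scrublet in scanpy 1.11.5 called 0 of 18182 barcodes in APOE4 LPS, where 14.5% were expected, and so did not work there. In APOE3 LPS it called 1268 of 15060, among them 12 of the 57 interferon-gated cells and 193 of the 3619 other astrocytes. Python 3.11.15, numpy 2.4.6, scipy 1.17.1, pandas 2.3.3 and matplotlib 3.10.9 were used. The other choices tried are given with their effect in the closing section.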

Additional observations from a re-analysis of the deposited data

Results flagged for a closer look

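In 3 genes the interferon-gated cells of the LPS libraries lay on opposite sides of the other astrocytes, at least 1.5-fold each, among the genes named in both libraries. These differences between libraries were not tested. Plin4, a lipid droplet gene, had a log2 ratio of 1.21 in APOE4 LPS and -1.06 in APOE3 LPS over all cells of the rule, from 290 and 19 UMIs in interferon-gated cells; among astrocyte-led cells of APOE3 LPS it had 60.6 CPM in interferon-gated and 55.1 CPM in other astrocytes. Opcml, a neuronal adhesion gene also found in oligodendrocyte lineage cells, had -2.90 in APOE4 LPS and 2.46 in APOE3 LPS among astrocyte-led cells, and 1 of the 40 cells of APOE3 LPS held 72.2% of its UMIs. Fos, an immediate-early gene, had -0.98 in APOE4 LPS and 4.11 in APOE3 LPS among astrocyte-led cells, and 1 cell of APOE3 LPS held 69.7% of its UMIs.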

How the results depend on the processing

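No paired analysis was possible because each group is 1 library. Shares of interferon-gated astrocytes in APOE4 LPS (13.8%) were 4.71% after thinning, 9.40% with at least 5 gate UMIs, 17.1% with foreign markers at 0, 20.2% above 2000 UMIs, 16.1% with 5 of 6 astrocyte markers and 16.7% in astrocyte-led cells. APOE3 LPS (1.55%) gave 0.342% after thinning and 0.843% with 5 gate UMIs, and APOE4 NaCl gave 0% after thinning and with foreign markers at 0. APOE4 LPS stayed the highest library in each. The higher and lower genes of APOE4 LPS (1264 and 1833) numbered 351 and 570 after thinning, 2178 and 3371 with no count filter, 617 and 775 at 50 expected UMIs, and 499 and 841 at 2-fold. Those of APOE3 LPS (1256 and 2487) numbered 9 and 23 after thinning, 611 and 1225 with foreign markers at 0, 816 and 1234 with 5 markers, 476 and 627 in astrocyte-led cells, 3705 and 6357 with no filter, 350 and 918 at 50 expected UMIs, and 636 and 1166 at 2-fold. Between APOE4 LPS and APOE3 LPS cells they numbered 15 and 27 after thinning and 691 and 423 in astrocyte-led cells, against 1880 and 1172. Thinning leaves fewer UMIs to measure; other causes were not tested.

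Some log2 values changed sign. In APOE4 LPS the ligand list was at 0.16 with foreign markers at 0, 0.20 with 5 markers and 0.14 at 50 expected UMIs, and MHC class II was at -0.28 with cells weighted equally. In APOE3 LPS the chemokine list was at -1.60 with 5 gate UMIs, -0.61 with foreign markers at 0, -0.77 with 5 markers, -1.23 without Scrublet calls, -0.27 in astrocyte-led cells and -1.25 at 50 expected UMIs, where complement was at -0.46. Apolipoproteins were at 0.48 after thinning, Notch genes at 0.12 against other astrocytes of matched depth, and Ttr at 0.056 in astrocyte-led cells. Between genotypes, pan-reactive genes were at -0.061 and homeostatic genes at -0.16 after thinning, and in astrocyte-led cells homeostatic genes were at -0.16, telencephalic genes at -0.46, Lcn2 at 1.02 and Aqp4 at -0.30. With 5 gate UMIs chemokines and C3 were both at -0.068, and with cells weighted equally Aqp4 was at -0.15. The cause was not tested. The guanylate-binding protein, immunity-related GTPase, antiviral and MHC class I medians of APOE4 LPS changed sign under none of the alternatives. The limits are 1 library per group, 3 pooled mice in each, few cells and kept doublets in APOE3 LPS, and uncalled doublets in APOE4 LPS.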

Other observations

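Over all measured genes of APOE4 LPS 9.73% were called higher and 14.1% lower in interferon-gated astrocytes, and the counts of lists below are small beside these shares. Glycogen and glutamine genes were called lower in 4 of 13 cases and higher in none, with a median log2 ratio of -0.27. Glul, glutamine synthetase, had 1326 CPM in interferon-gated and 1806 CPM in other astrocytes. Pygm, a glycogen phosphorylase, had 66.9 and 106.6 CPM, and Phgdh, which starts serine synthesis, had 95.4 and 152.5 CPM. Of 8 apolipoprotein and efflux genes 3 were called lower, among them Lcat, which esterifies cholesterol, at 43.9 and 79.0 CPM. Of 5 measured cell death genes 3 were called higher and 1 lower over all cells of the rule. The caspase gene Casp8 had 14.6 and 6.67 CPM, Casp12 had 13.2 and 3.13 CPM, and the nucleic acid sensor Zbp1 had 16.4 and 6.67 CPM. Among Notch pathway genes, Hes1 had 154 and 109 CPM while Hes5 had 32.9 and 133 CPM.

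Among astrocyte-led interferon-gated cells, several genes leading the contrast of APOE4 LPS with APOE3 LPS rested on few cells. The sodium channel gene Scn7a had 228 UMIs in APOE4 LPS and 0 in APOE3 LPS, and 5 cells held 92.1% of them. Ccn2, a matricellular growth factor, had 142 and 0 UMIs, and 1 cell held 69.0%. The haemoglobin gene Hbb-bs had 865 and 3 UMIs, and 1 cell held 56.2%. Hmga1, a chromatin protein, had 180 and 1 UMIs, and Chil1, a chitinase-like protein of reactive astrocytes, was 17.6-fold higher from 287 and 2 UMIs.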
